A study of Rattus norvegicus with 16 samples.

Results

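Interferon-induced antiviral effectors were followed in rat PCCl3 thyroid cells after silencing of *Pax8*. They comprised 10 genes, *Mx1*, *Mx2*, *Oas1a*, *Oasl*, *Ifit1*, *Ifit2*, *Ifit3*, *Rsad2*, *Isg20* and *Bst2*. A probe was assigned to one of them when the RefSeq accession in the array files resolved to its symbol in the reference table. All 10 genes were found, with 13 of the 41012 probes on the array, and they were 10 of 8899 genes that could be named. *Ifit2*, *Rsad2* and *Bst2* had 2 probes each and the others 1.

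PCCl3 is a thyroid cell line of Fischer rat origin that keeps features of follicular cells in culture. It was kept here in medium with thyrotropin, insulin and other hormones. Cells were transfected transiently, using a lipofectamine reagent, with 10 ng/ml of an siRNA against *Pax8*, a transcription factor of differentiated thyroid cells (siPax8 cells), or of a scrambled siRNA (siScramble cells). On 8 Agilent rat whole genome arrays siPax8 RNA was hybridized together with wild type (wt) RNA, and on another 8 together with siScramble RNA, in 4 biological replicates per comparison and both dye orientations. The labels call the first control wild type, whereas the study's methods describe it as treated with lipofectamine and a legend of its supplement as not transfected, so what the wt cells had received is not settled here. The study's scheme names the same siPax8 samples in both comparisons, and wt and siScramble RNA never shared an array.

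The genes examined belong to the cellular response to interferons. Type I interferons bind a receptor at the cell surface and act through JAK kinases on STAT proteins, which join IRF9 and bind interferon-stimulated response elements (ISRE) in the promoters of many genes. Many of their products interfere with steps of viral replication. Thyroid follicular cells respond to interferons as well, and disturbed thyroid function is a known side effect of interferon therapy.

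A few facts of the arrays bear on the values below. The share of spots well above background ranged from 52.9% to 59.5% for Cy3 and from 51.0% to 57.9% for Cy5, with up to 2 saturated spots on an array. *Pax8* itself had log2 ratios to wt cells of -0.84, -0.57, -0.59 and -0.26 in replicates 1 to 4 (limma adjusted p = 0.000475), and of -0.58, -0.29, -0.12 and -0.01 to siScramble cells (limma adjusted p = 0.143). It fell against wt cells, while the values against siScramble cells did not pass the threshold of 0.005. Direction follows the dyes in the labels and is that of the study's probe table, whereas the study's text words its numbers of lower and higher probes the other way round. Of 9 thyroid markers with a named probe 8 were well above background on all 8 wt arrays, and *Epcam* was on none. Fibroblast and endothelial markers other than *Col1a2* were at background on every wt array. The 5 leukocyte markers with a named probe had mean log2 ratios between -0.04 and 0.30 to wt and between 0.00 and 0.12 to siScramble cells. *Itgam* was at background on every array, whereas *Cd68* and *Cd14* were above it on all, and *Cd68* was higher in siPax8 than in wt cells (log2 ratio 0.30 ± 0.12, SD, n = 4; limma adjusted p = 0.0008). The part of *Cd68*-expressing cells in the results below was not tested. In RNA from whole cultures, fewer cells of a type and less RNA per cell cannot be told apart.

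Promoter sequences are shown because the members are grouped by a shared response, and the ISRE is the element through which it is known to act. RefSeq promoters (GRCr8) were matched by symbol for 7 of the 10 members, and *Mx2*, *Ifit1* and *Ifit2* had no entry. The 150 bases before each annotated start lie at chr11:50294607-50294756 on the minus strand for *Mx1*, at chr12:41330316-41330465 on the plus strand for *Oas1a* and at chr12:47356293-47356442 on the minus strand for *Oasl*. They lie at chr1:241527176-241527325 on the plus strand for *Ifit3*, at chr6:48788121-48788270 on the minus strand for *Rsad2*, at chr1:142239909-142240058 on the plus strand for *Isg20* and at chr16:18254968-18255117 on the minus strand for *Bst2*. Each is written 5′ to 3′ on the strand of its gene, and capitals mark the letters GAAANNGAAA or their reverse complement TTTCNNTTTC, which form the core of an ISRE.

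Mx1: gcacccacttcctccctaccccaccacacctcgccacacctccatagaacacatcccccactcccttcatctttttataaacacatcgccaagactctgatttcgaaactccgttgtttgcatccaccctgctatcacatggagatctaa
Oas1a: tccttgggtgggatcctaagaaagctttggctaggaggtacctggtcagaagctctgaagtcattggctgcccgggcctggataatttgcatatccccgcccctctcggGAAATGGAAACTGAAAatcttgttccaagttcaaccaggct
Oasl: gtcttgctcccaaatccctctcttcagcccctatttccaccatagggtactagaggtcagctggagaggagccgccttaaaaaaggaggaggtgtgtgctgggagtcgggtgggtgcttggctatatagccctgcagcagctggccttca
Ifit3: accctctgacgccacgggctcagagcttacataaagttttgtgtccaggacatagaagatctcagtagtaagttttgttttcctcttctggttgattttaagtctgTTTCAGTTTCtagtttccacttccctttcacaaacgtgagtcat
Rsad2: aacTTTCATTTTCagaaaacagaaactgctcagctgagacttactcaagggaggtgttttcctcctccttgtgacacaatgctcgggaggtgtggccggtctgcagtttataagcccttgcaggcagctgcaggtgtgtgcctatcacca
Isg20: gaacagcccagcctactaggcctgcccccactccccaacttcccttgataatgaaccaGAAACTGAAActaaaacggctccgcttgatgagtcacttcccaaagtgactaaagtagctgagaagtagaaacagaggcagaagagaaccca
Bst2: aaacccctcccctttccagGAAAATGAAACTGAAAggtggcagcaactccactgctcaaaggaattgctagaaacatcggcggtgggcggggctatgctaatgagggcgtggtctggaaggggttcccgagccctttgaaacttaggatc

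The core was found in 5 of these 7 promoters. It lay 147 bases before the annotated start in *Rsad2*, 92 in *Isg20* and 44 in *Ifit3*. *Oas1a* and *Bst2* each held 2 matches that overlap by 4 letters, the first of them 41 and 131 bases before the start. *Mx1* and *Oasl* held none in this window. Among all 33469 promoters of the table, 2.05% held the core in the same window. The letters TTCNNNGAA, the element of the interferon gamma response (GAS), were searched as well, which read the same on both strands. They occurred in *Bst2* only among the 7, overlapping the ISRE core there, and in 4.41% of all promoters. A match describes the sequence and was not tested as a binding site.

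The first comparison asked which transcripts differ between siPax8 and wt cells. Most of the antiviral effectors were higher in siPax8 cells, from 1.30-fold for *Isg20* to 17.0-fold for *Rsad2*. The *Rsad2* probe had the largest ratio of all 41012 probes, and *Oas1a* and *Mx2* followed at ranks 5 and 6. A total of 10 of the 13 probes were called higher, that is, with a positive mean log2 ratio and a limma adjusted p below 0.005, and none lower. Among all probes 7.03% were called higher. Of the 10 genes 7 had every probe called, and *Ifit1*, *Ifit2* and *Bst2* did not. The median of the 10 gene means was 0.85 (SD of the replicate medians 0.15, n = 4) on the log2 scale, where the median of all probes was -0.004. The plot of ratios by replicate gives all values.

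**Figure D1:**
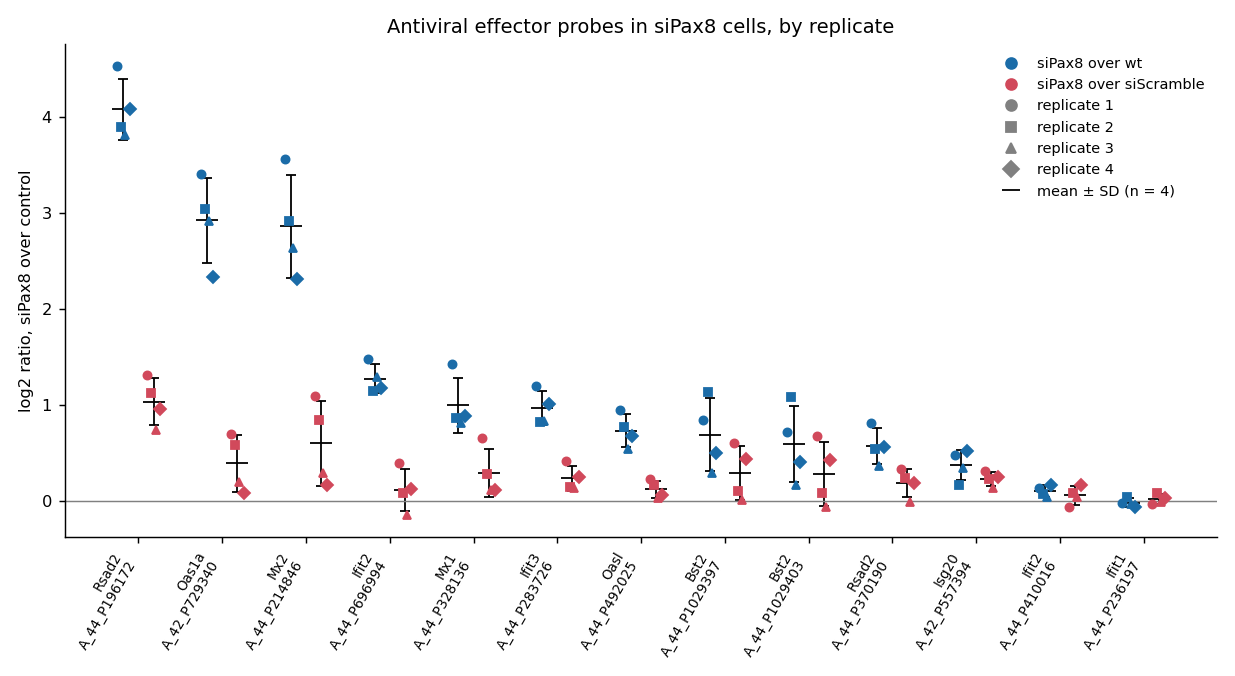
Log2 ratio of siPax8 over control (y axis) for the 13 probes of the antiviral effectors (x axis, ordered by the ratio to wt cells), with wt cells as control in blue and siScramble cells in red. Each symbol is one replicate, the mean of its 2 dye orientations, and black bars give mean ± SD (n = 4). *Rsad2*, *Oas1a* and *Mx2* lie between 2.32 and 4.53 against wt cells, and no probe exceeds 1.32 against siScramble cells.

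*Mx1* and *Mx2* encode dynamin-like GTPases that trap viral nucleocapsids. The log2 ratios of *Mx2* (A_44_P214846) to wt cells were 3.57, 2.92, 2.64 and 2.32 in replicates 1 to 4, a mean of 2.86 ± 0.53 (SD, n = 4) or 7.28-fold (limma adjusted p = 3.08e-06). Each replicate was far above 0, with replicate 1 the highest. *Mx1* (A_44_P328136) had values of 1.43, 0.87, 0.82 and 0.89, a mean of 1.00 ± 0.29 (SD, n = 4; limma adjusted p = 4.35e-05). For *Mx1*, none of the 8 wt arrays and all 8 siPax8 arrays gave a signal well above background. The *Mx1* ratio therefore rests on a wt signal that is not told apart from background. In channel levels after loess and Aquantile normalization *Mx1* measured 2.18-fold higher in siPax8 cells. It was 2.11-fold higher when wt levels below the dimmest signal above background on an array were raised to that signal. The dimmest signal was taken over all probes, so this value is not a strict lower limit. Both values belong to the scale of the channel levels, since the mean ratio above corresponds to 2.00-fold. The *Mx2* probe was well above background on 6 of 8 wt arrays.

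The 2′-5′ oligoadenylate synthetases sense double-stranded RNA and make short oligoadenylates in response. *Oas1a* (A_42_P729340) had log2 ratios to wt cells of 3.41, 3.04, 2.92 and 2.34, a mean of 2.93 ± 0.44 (SD, n = 4) or 7.60-fold (limma adjusted p = 9.42e-07). This probe was bright in every condition. As scanned, its intensity in wt cells had a median of 1562 over 8 arrays (946 to 2363) and in siPax8 cells of the same arrays a median of 12867 (9301 to 14055), against a median local background of 39.8 and 36.8, so that the ranges did not overlap. *Oasl* (A_44_P492025), a relative of this family, had smaller ratios of 0.95, 0.77, 0.54 and 0.68, a mean of 0.73 ± 0.17 (SD, n = 4; limma adjusted p = 2.14e-05). It was dim, with wt cells well above background on 5 of 8 arrays. The rat has several closely related *Oas1* genes, and whether the *Oas1a* probe also binds their transcripts was not tested.

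The IFIT proteins bind viral RNA and hold back its translation. *Ifit3* (A_44_P283726) had log2 ratios to wt cells of 1.20, 0.83, 0.84 and 1.01, a mean of 0.97 ± 0.17 (SD, n = 4; limma adjusted p = 4.68e-06). Its probe was not well above background on any wt array and was on all 8 siPax8 arrays, so the ratio rests on a wt signal that is not told apart from background. On the scale of the channel levels *Ifit3* measured 2.14-fold higher, against 1.96-fold from the mean ratio. Raising wt levels as for *Mx1* left it at 2.14-fold, so no lower limit was gained. The probes of *Ifit2* disagreed. A_44_P696994 had ratios of 1.48, 1.15, 1.30 and 1.18, a mean of 1.28 ± 0.15 (SD, n = 4) or 2.42-fold (limma adjusted p = 5.69e-07), whereas A_44_P410016 had 0.14, 0.08, 0.04 and 0.17, a mean of 0.11 ± 0.06 (SD, n = 4; limma adjusted p = 0.036). The second probe was well above background on no wt array and on 1 siPax8 array, so it gives little information on the level. *Ifit1* (A_44_P236197) was not well above background on any array of any condition, and its mean ratio of -0.02 ± 0.05 (SD, n = 4; limma adjusted p = 0.79) says nothing of a change.

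*Rsad2* encodes viperin, a radical SAM enzyme that makes a chain-terminating nucleotide. Its probe A_44_P196172 had log2 ratios to wt cells of 4.53, 3.90, 3.82 and 4.09, a mean of 4.08 ± 0.32 (SD, n = 4; limma adjusted p = 3.75e-08). As scanned, the spot had a median intensity of 83.8 in wt cells (42 to 132 over 8 arrays) against a median background of 38, and of 2284 in siPax8 cells (1403 to 3257). Every siPax8 array was more than 10 times as bright as every wt array at this spot, and wt cells were nevertheless well above background on all 8. The other *Rsad2* probe, A_44_P370190, was much dimmer, with ratios of 0.82, 0.54, 0.37 and 0.57 and a mean of 0.58 ± 0.19 (SD, n = 4; limma adjusted p = 0.000131). It was well above background on no wt array and on all 8 siPax8 arrays. On the scale of the channel levels it measured 1.58-fold higher, and 1.52-fold with wt levels raised as for *Mx1*. The mean ratio gave 1.49-fold. The probes agreed in direction and not in size.

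*Isg20*, an exonuclease that degrades RNA, and *Bst2*, which encodes tetherin and retains budding viruses at the cell surface, were bright in wt cells on all 8 arrays and had small ratios. *Isg20* (A_42_P557394) had log2 ratios to wt cells of 0.48, 0.17, 0.35 and 0.52, a mean of 0.38 ± 0.16 (SD, n = 4; limma adjusted p = 0.000715). This call was lost without replicate 3 (0.39, limma adjusted p = 0.00626) and with Agilent's processed intensities (0.41, limma adjusted p = 0.0186). The *Bst2* probe A_44_P1029397 had 0.85, 1.14, 0.29 and 0.50, a mean of 0.69 ± 0.38 (SD, n = 4; limma adjusted p = 0.00163), and A_44_P1029403 had 0.72, 1.09, 0.17 and 0.41, a mean of 0.60 ± 0.40 (SD, n = 4; limma adjusted p = 0.00519), just past the limit on the other side. Both probes gave positive values in every replicate, with a wide spread. The call of the first was lost in 5 of 14 alternatives. These were the fit without replicate 4 (0.76, limma adjusted p = 0.0052), the replicate block (0.69, limma adjusted p = 0.00937), Agilent's processed intensities (0.70, limma adjusted p = 0.0468) and each dye orientation alone (limma adjusted p = 0.0107 and 0.00546). Conversely, the second probe was called in 7 of 14 alternatives. Among them were the fit without replicate 3 (0.74, limma adjusted p = 0.00316) and siPax8 in Cy5 alone (0.33, limma adjusted p = 0.000312).

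Of the 13 probes, these 3 differed most between the dye orientations against wt cells. With siPax8 RNA in Cy5 the mean log2 ratio of *Bst2* A_44_P1029397 to wt cells was 0.20, and with siPax8 RNA in Cy3 it was 1.19. For *Bst2* A_44_P1029403 these means were 0.33 and 0.86, and for *Isg20* 0.21 and 0.55. The larger changes held in each orientation, with 4.08 and 4.09 for *Rsad2* A_44_P196172, 2.86 and 2.87 for *Mx2*, and 2.79 and 3.06 for *Oas1a*. Averaging the orientations cancels a dye effect that is equal in both. Each of the 4 slides held both comparisons, and within slides the *Rsad2* A_44_P196172 ratio to wt cells was 4.42, 3.83, 3.88 and 4.20, that of *Mx2* 2.73 to 2.99 and that of *Oas1a* 2.84 to 3.

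**Figure D2:**
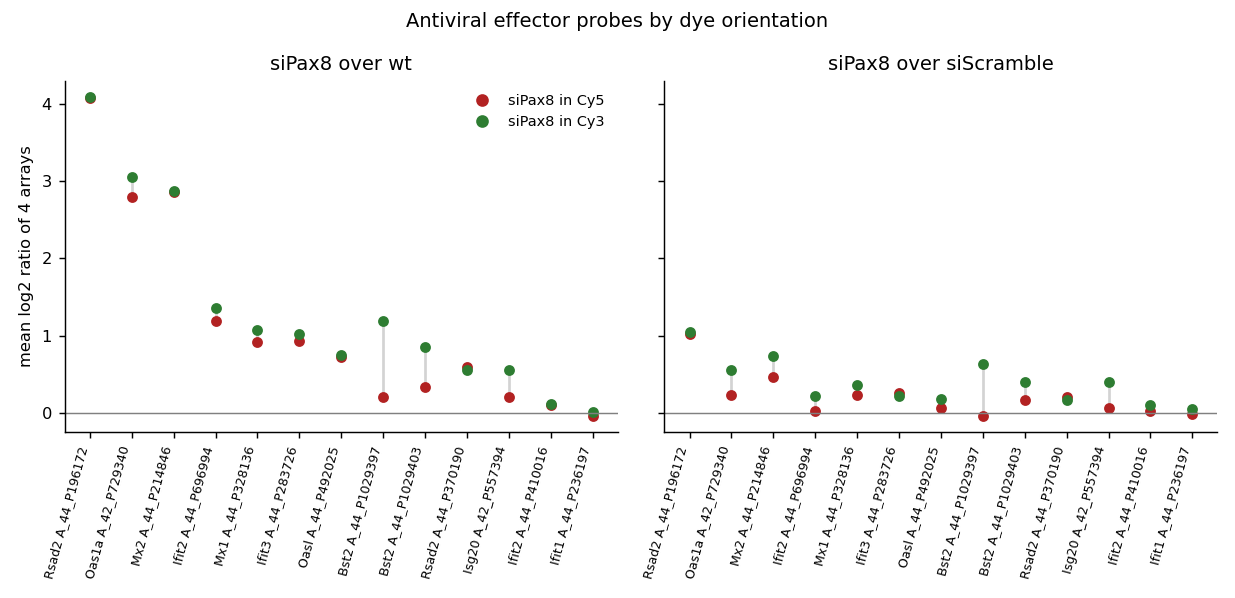
Mean log2 ratio of siPax8 over control (y axis) over the 4 arrays with siPax8 RNA in Cy5 (red) and the 4 with siPax8 RNA in Cy3 (green) for each antiviral effector probe (x axis), against wt cells at left and siScramble cells at right. The points of *Rsad2* A_44_P196172 coincide at 4.08 and 4.09 against wt cells, while those of *Bst2* A_44_P1029397 lie at 0.20 and 1.19.

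The second comparison asked which transcripts differ between cells given the *Pax8* siRNA and cells given a scrambled one. The antiviral effectors differed far less here. *Rsad2* A_44_P196172 was the only one of the 13 probes called higher, with log2 ratios to siScramble cells of 1.32, 1.13, 0.74 and 0.96, a mean of 1.04 ± 0.25 (SD, n = 4) or 2.05-fold (limma adjusted p = 0.000858). Among all probes 1.22% were called higher. *Rsad2* ranked 8 of 41012 by its ratio. All 4 replicates were above 0, but without replicate 2 the call was lost (1.01, limma adjusted p = 0.0108), as it was when Agilent's own processed intensities were used (1.11, limma adjusted p = 0.0295). Within slides the ratio was 1.05, 0.91, 0.96 and 1.24. Of all probes, 499 were higher and 368 lower, and with loess normalization alone 418 and 178.

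The other 12 probes had positive means as well, none of which passed the threshold. *Mx2* had log2 ratios to siScramble cells of 1.1, 0.85, 0.29 and 0.17, a mean of 0.60 ± 0.44 (SD, n = 4; limma adjusted p = 0.0506), and *Oas1a* had 0.70, 0.59, 0.20 and 0.09, a mean of 0.40 ± 0.29 (SD, n = 4; limma adjusted p = 0.0561). For both genes replicates 1 and 2 were well above replicates 3 and 4. *Ifit3* had 0.42, 0.15, 0.14 and 0.25 (mean 0.24 ± 0.13, SD, n = 4; limma adjusted p = 0.0242) and *Isg20* 0.32, 0.23, 0.14 and 0.25 (mean 0.23 ± 0.07, SD, n = 4; limma adjusted p = 0.00742). *Isg20* had the narrowest spread of these and came nearest to the threshold. *Mx1* had a mean of 0.29 ± 0.26, *Oasl* of 0.12 ± 0.09, *Ifit2* of 0.12 ± 0.22 and 0.06 ± 0.10, *Bst2* of 0.29 ± 0.28 and 0.28 ± 0.33, the second *Rsad2* probe of 0.19 ± 0.15 and *Ifit1* of 0.02 ± 0.05 (SD, n = 4 each). The median of the 10 gene means was 0.26 (SD of the replicate medians 0.19, n = 4), against -0.004 over all probes. Without a correction for the number of probes, 10 of the 13 were higher at a limma p below 0.05, as were 3514 of all 41012 probes. With siPax8 RNA in Cy3 alone 6 of the 13 probes were called, and with siPax8 RNA in Cy5 alone 1. Of all probes, 1715 and 140 were called higher in these orientations. With the slide as a random block 3 were called, *Mx2* (limma adjusted p = 0.00199) and *Ifit3* (limma adjusted p = 0.00139) being added to *Rsad2*. That fit takes single arrays as values, so both dye orientations of a replicate count separately, and it called 1206 of all probes higher.

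Replicate 1 had the highest log2 ratio for 8 of the 13 probes against wt and for 11 against siScramble cells. It was also the replicate with the lowest *Pax8* ratio in both comparisons, and replicate 4 had the *Pax8* ratio nearest to 0. With 4 replicates per comparison and the same siPax8 samples in both, a relation between *Pax8* and the effectors was not tested.

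The level of each condition shows where the comparisons part. Levels are log2 intensities of a channel after loess and Aquantile normalization, given as means of 4 replicates. *Rsad2* A_44_P196172 had a level of 6.86 ± 0.06 in wt, 10.06 ± 0.19 in siScramble and 11.15 ± 0.31 in siPax8 cells on the wt arrays (SD, n = 4 each), and siPax8 cells on the siScramble arrays had 11.11 ± 0.32. The siScramble replicates lay between 9.81 and 10.21, above every wt replicate (6.82 to 6.95) and below every siPax8 replicate (10.78 to 11.57). *Oas1a* had 10.58 ± 0.30 in wt, 13.15 ± 0.20 in siScramble and 13.56 ± 0.24 in siPax8 cells, and *Mx2* had 6.64 ± 0.12, 9.04 ± 0.22 and 9.72 ± 0.47 (SD, n = 4 each). For *Oas1a* and *Mx2* too, the siScramble cells stood apart from wt cells in all replicates and closer to siPax8 cells.

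*Mx1*, *Oasl*, *Ifit3* and *Ifit2* A_44_P696994 showed the same order at lower intensity. *Ifit2* A_44_P696994 had a level of 6.51 ± 0.10 in wt, 7.72 ± 0.12 in siScramble and 7.94 ± 0.12 in siPax8 cells, and *Ifit3* had 6.51 ± 0.03, 7.38 ± 0.09 and 7.61 ± 0.20 (SD, n = 4 each). The siScramble and siPax8 replicates of *Ifit2* overlapped (7.56 to 7.84 and 7.80 to 8.09), and those of *Ifit3* did too. *Mx1* and *Ifit3*, well above background on no wt array, were so on all 8 siScramble arrays. The means of *Isg20* kept this order (10.60 ± 0.13, 10.72 ± 0.05 and 11.01 ± 0.07 in wt, siScramble and siPax8 cells, SD, n = 4 each). Its replicates were separated otherwise, since those of wt and siScramble cells overlapped and those of siPax8 cells lay above both. Between the 2 sets of arrays, the siPax8 level of the 13 probes differed by at most 0.10, which is a check of the scale and not a result.

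**Figure D3:**
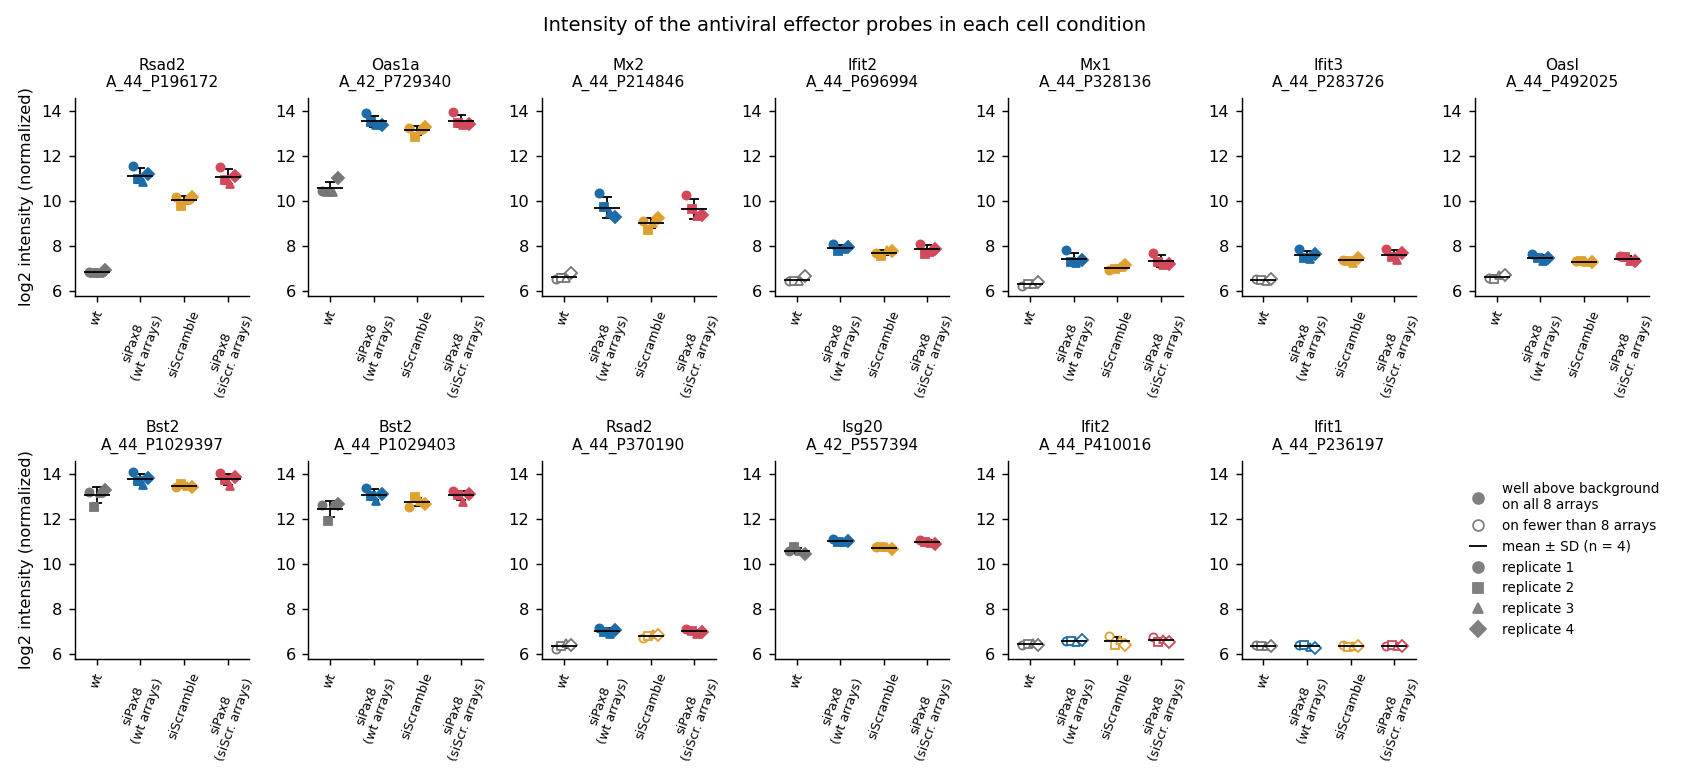
Normalized log2 intensity (y axis) of each antiviral effector probe in wt cells, siPax8 cells on the same arrays, siScramble cells and siPax8 cells on those arrays (x axis), one symbol per replicate with mean ± SD (n = 4). Open symbols mark conditions in which the probe was well above background on fewer than 8 arrays, and levels of different probes are not comparable. For *Rsad2* A_44_P196172 the siScramble cells (9.81 to 10.21) lie between wt cells (6.82 to 6.95) and siPax8 cells (10.78 to 11.57).

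The difference between the comparisons was then tested by itself, as the ratio to wt minus the ratio to siScramble cells. Since both contain siPax8 cells, it stands for siScramble against wt cells measured indirectly. It was larger than 0 for 6 of the 13 probes by limma, where 1.65% of all probes were called larger. *Rsad2* A_44_P196172 had a difference of 3.05 ± 0.15 (SE) on the log2 scale, or 8.27-fold (limma adjusted p = 1.63e-06), *Oas1a* of 2.53 ± 0.20 (limma adjusted p = 3.37e-05) and *Mx2* of 2.26 ± 0.26 (limma adjusted p = 0.000378). These ranked 2, 3 and 6 of all probes. *Ifit2* A_44_P696994 (1.16 ± 0.11), *Ifit3* (0.73 ± 0.09) and *Oasl* (0.61 ± 0.08, SE) were called as well.

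*Mx1* did not pass with a difference of 0.71 ± 0.15 (SE; limma adjusted p = 0.0113), and without replicate 1, whose ratio to wt cells was the highest, it was called (0.69, limma adjusted p = 9.76e-05). With same-numbered replicates of the comparisons paired in a replicate block, 8 probes were called, *Mx1* (limma adjusted p = 8.16e-06) and *Rsad2* A_44_P370190 (limma adjusted p = 0.000299) among them. *Isg20* (0.14 ± 0.07, SE; limma adjusted p = 0.277) and *Bst2* (0.40 ± 0.18 and 0.31 ± 0.20, SE; limma adjusted p = 0.217 and 0.426) were not called. The calls of *Mx2*, *Oasl* and *Ifit3* depended on single replicates, although all 3 were kept without replicate 1. *Mx2* was short of the threshold without replicate 2 (limma adjusted p = 0.00634) or 3 (0.0069), *Oasl* without replicate 2 (0.0117) or 4 (0.00855), and *Ifit3* without replicate 3 (0.0055) or 4 (0.00691), at differences of 0.61 to 2.33. The differences of *Rsad2* A_44_P196172, *Oas1a* and *Ifit2* A_44_P696994 remained called in each case.

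**Figure D4:**
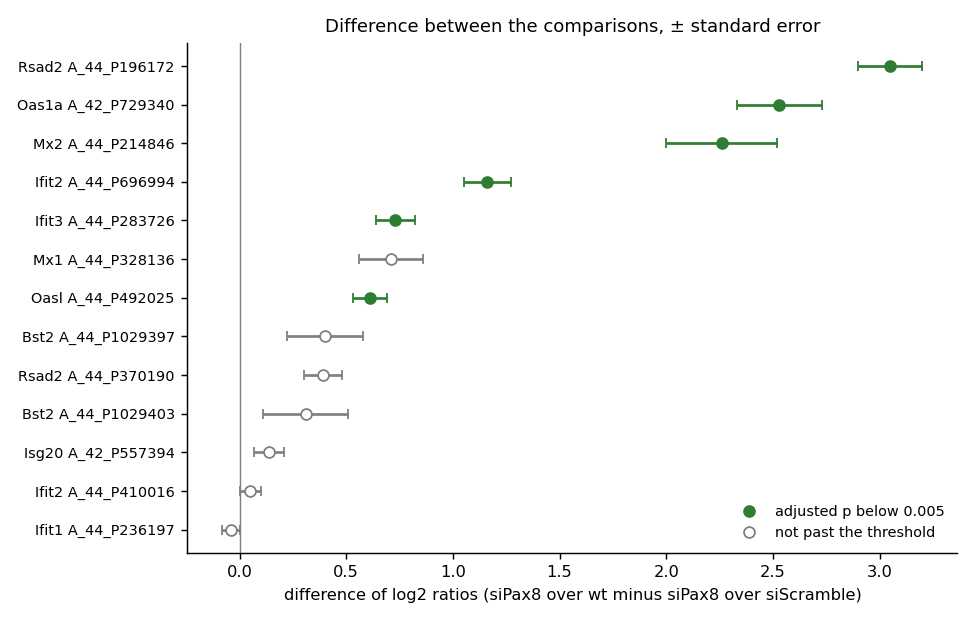
Difference between the log2 ratio to wt cells and the log2 ratio to siScramble cells (x axis) for each antiviral effector probe (y axis), with the standard error of the fit as bars. Filled green points passed the limma threshold and open grey points did not. *Rsad2* A_44_P196172 (3.05), *Oas1a* (2.53) and *Mx2* (2.26) lie farthest from 0.

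Most other antiviral and interferon-induced genes with a probe were higher in siPax8 than in wt cells as well. Of 41 such genes listed, 16 had a named probe. Against wt cells 12 were higher, none was lower and 4 did not pass the threshold, with a median log2 ratio of 0.54. Among all 8899 named genes 7.26% had every probe called higher. Against siScramble cells 2 were higher and 14 did not pass, with a median of 0.19, where 1.67% of named genes were higher. *Oasl2*, a synthetase-like gene, was higher in both, with log2 ratios of 2.25 ± 0.27 to wt and 0.62 ± 0.21 to siScramble cells (SD, n = 4 for either; limma adjusted p of 3.48e-07 and 0.00386). So was *Gbp2*, an interferon-induced GTPase, with 1.75 ± 0.25 and 0.66 ± 0.24 (SD, n = 4 in both comparisons; limma adjusted p 8.09e-07 and 0.00482). *Oas1b* (1.5 ± 0.28), *Ifi27l2b* (1.48 ± 0.27), *Oas1i* (1.43 ± 0.24) and *Ifi44l* (0.94 ± 0.17, SD, n = 4 each) rose against wt cells and did not pass against siScramble cells, where *Ifi44l* came closest to the threshold (0.44 ± 0.16, SD, n = 4; limma adjusted p = 0.0052). The difference between the comparisons was called for *Oas1b*, *Ifi27l2b* and *Oas1i* and not for *Ifi44l* (0.49, limma adjusted p = 0.00628). *Oas1d*, well above background on no array, *Trim25* and *Ifitm2* were among the 4 genes not called in either comparison, and were named after their values were seen. The difference between the comparisons was called larger for 8 of the 16 genes, and for 1.78% of named genes. The ISRE core occurred in 6 of 13 promoters of the measured genes of this list, and in 2 of 10 of those of the signalling genes that follow.

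Of 22 genes of interferon signalling 12 had a named probe, of which 7 were higher and 1 lower against wt cells, and 2 were higher against siScramble cells. Among all named genes 7.26% were higher and 9.45% lower against wt cells, and 1.67% were higher against siScramble cells. Among the ligands, *Ifnb1*, which encodes interferon beta, had log2 ratios to wt cells of 0.35, 0.37, 0.38 and 0.46, a mean of 0.39 ± 0.05 (SD, n = 4; limma adjusted p = 2.34e-05). It was dim, well above background on 1 of 8 wt arrays and on all 8 of both siPax8 and siScramble cells. Against siScramble cells its mean was -0.02 ± 0.11 (SD, n = 4; limma adjusted p = 0.913), and the difference between the comparisons was called (0.41, limma adjusted p = 0.000879). *Ifng* was at background throughout. The one receptor subunit measured, *Ifngr1*, had means of 0.10 ± 0.09 and 0.04 ± 0.07 (SD, n = 4 each) and did not pass in either comparison.

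The transcription factors described here rose against wt cells. *Irf7*, which drives interferon genes, had a mean log2 ratio of 2.36 ± 0.09 to wt and 0.74 ± 0.12 to siScramble cells (SD, n = 4 for either; limma adjusted p of 7.53e-09 and 0.000333), so that it passed in both. *Irf9* had 1.84 ± 0.19 and 0.21 ± 0.16 and *Stat2* 0.41 ± 0.18 and 0.14 ± 0.09 (SD, n = 4 each), and both passed against wt and not against siScramble cells. The difference between the comparisons was called for *Irf9* (1.63, limma adjusted p = 5.47e-06) and not for *Stat2* (0.27). *Jak2*, a kinase named after its values were seen, was the other gene higher in both, with 0.64 ± 0.05 and 0.47 ± 0.09 (SD, n = 4 each). Of 4 inhibitors measured, 1 rose and 1 fell against wt cells, and none passed against siScramble cells. *Usp18*, which removes ISG15 and dampens the interferon receptor, rose by 2.19 ± 0.23 (SD, n = 4) on the log2 scale against wt cells, while *Socs1*, which restrains JAK kinases, fell by 0.32 (SD 0.06, n = 4; limma adjusted p = 0.000102). Against siScramble cells their means were 0.47 ± 0.27 and -0.16 ± 0.15 (SD, n = 4 each). *Socs3* and *Ptpn6*, named after their values were seen, had means of -0.08 ± 0.03 and -0.04 ± 0.04 (SD, n = 4 each) against wt cells and did not pass.

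**Figure D5:**
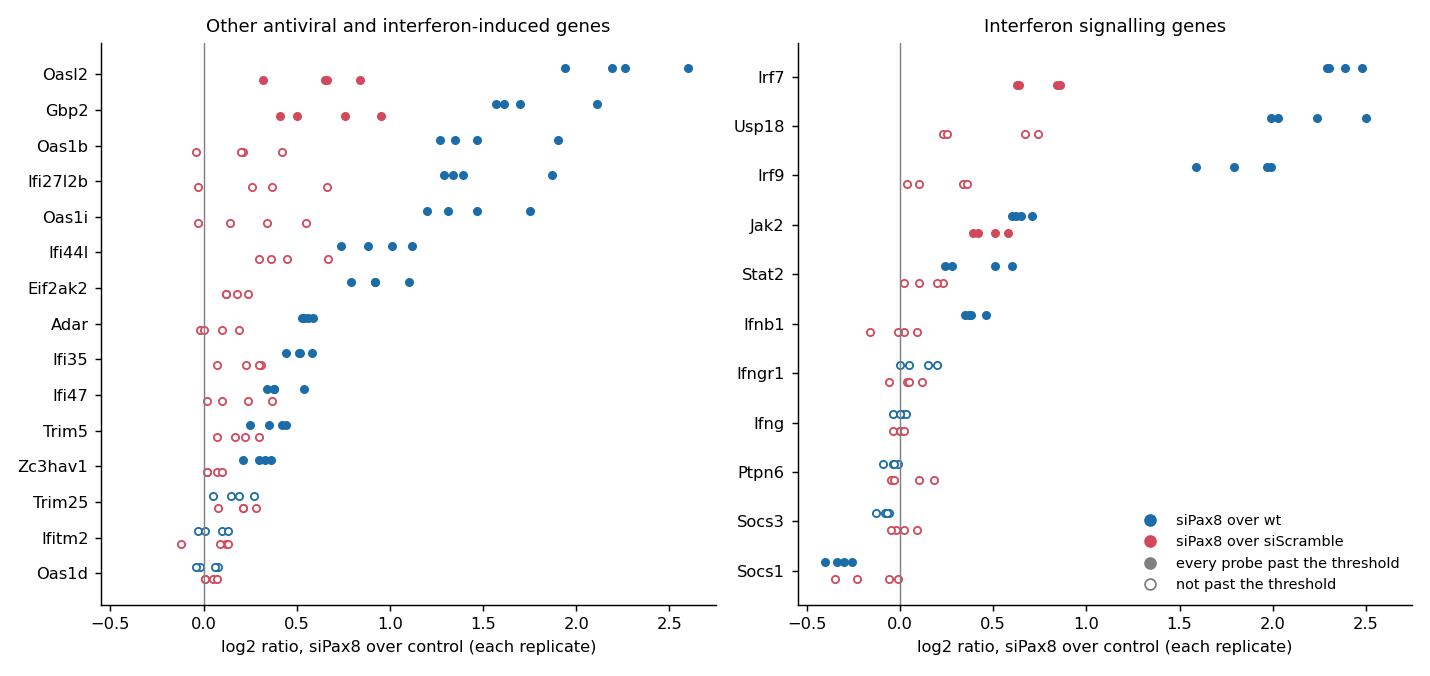
Log2 ratio of siPax8 over control (x axis) of other antiviral and interferon-induced genes (left) and of interferon signalling genes (right), with each of the 4 replicates as a point, blue against wt and red against siScramble cells. Filled points mark genes with every probe past the limma threshold, which 2 genes in each list reached against siScramble cells, *Oasl2* and *Gbp2* at left and *Irf7* and *Jak2* at right, and 1 counted gene of each list is not drawn.

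Among 1482 other genes with every probe called against wt cells, those whose 8 replicate values were most like the mean of the 10 effectors were *Oas1b* (Pearson r 0.997), *Cxcl1* (0.996), *Lgals9* (0.994), *Usp18* (0.993) and *Gbp2* (0.993). The 8 points share siPax8 samples and fall into the 2 comparisons, which sets most of this likeness. *Cxcl1*, a chemokine, had log2 ratios of 1.02 ± 0.15 to wt and 0.35 ± 0.13 to siScramble cells, and *Lgals9*, which encodes the lectin galectin-9, had 1.62 ± 0.19 and 0.23 ± 0.15 (SD, n = 4 each).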

How the data were processed

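Scanner files, 1 per array, were deposited with the raw fluorescence intensities of Cy3 and Cy5, and the authors added 1 table of normalized log2 ratios. Per the file headers they were made with Feature Extraction 10.1.1.1 at 5 µm, whereas the study's methods name another version and scan. The table's columns had medians from -7e-04 to 0.0083 and had correlations of -0.999 to -0.992 with siPax8 over control, so the table holds the inverse ratio. It served as an alternative with the sign turned. The 16 arrays lay on 4 slides, each with 2 arrays of each comparison, 1 per dye orientation.

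The local background was taken off mean intensities by normexp with an offset of 50, and ratios were normalized by loess within arrays (control and outlier spots with weight 0) and by quantiles between them in limma 3.58.1 (R 4.3.3, statmod 1.5.0). An offset of 50 shrinks the ratios of dim probes. An array had 45018 spots, 1639 of them controls and 112 to 215 outliers, which were left out. Ratios of siPax8 over control were averaged over dye swaps, which left 4 values per comparison for lmFit and eBayes, with Benjamini-Hochberg adjustment over 41012 probes and the methods' threshold of 0.005. Deviations of the same replicate number in both orientations had correlations of 0.119 to 0.58, at probes with a mean log2 intensity above 8. Replicate 2 against wt cells, at 0.119, was more like another replicate. Within a comparison, the replicate block was fitted to single arrays, with both dye orientations of a replicate in one block. Its fitted correlation was -0.124 against wt and -0.115 against siScramble cells. The difference between comparisons was fitted as 2 separate groups of 4, with the replicate block as an alternative, although the same siPax8 samples are named in both. Gene values are means over probes, and a gene was called when every probe was. The number of arrays and the dimness of many probes limit the precision, and p-values measure the spread between these replicates.

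All member probes are named. Of the other interferon-induced genes, the 6 with the largest ratio to wt cells among those called and each gene called in both comparisons are named, and of the signalling genes the ligands, receptors, *Stat2*, *Irf9*, *Irf7*, *Usp18* and *Socs1*. Members and lists were chosen with earlier results of these data known. The fits were tested on simulated data with independent values, which did not reproduce siPax8 samples shared by the comparisons. Probes were named by matching their RefSeq accessions to a GRCr8 table, which named 10768 probes. Columns of fold changes and p-values in the scanner files were not used. A few items are counted in the lists and not reported here by name.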

Additional observations from a re-analysis of the deposited data

Results flagged for a closer look

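In the comparison with wt cells, the *Mx1* log2 ratio of replicate 1 was 1.43, apart from 0.82 to 0.89 in the other 3 replicates. Its gap to the nearest value was 0.888 of the whole range, above the 95% limit for 4 values. It was the only one of 26 groups of replicates (13 probes in 2 comparisons) past this limit, and chance alone gives about 1 in 20 such groups.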

How the results depend on the processing

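The number of member probes called higher against wt cells was 8 to 12 under the alternatives, against 10. Against siScramble cells it was 0 when Agilent's processed intensities were used (limma; 8 members at an unadjusted p below 0.05), 6 with siPax8 in Cy3 only, 2 with the replicate block and 3 with the slide as a random block, against 1. In the same order, 0, 1715, 893 and 1206 of all probes were called higher, against 499. Without one replicate the number of member probes was 0 to 1. The median of the member genes against wt cells moved from 0.85 to 2.66 with Agilent's processed intensities, 1.33 with a normexp offset of 10 and 1.02 with siPax8 in Cy3 only. The first 2 use no offset or a smaller one than 50, which shrinks dim ratios less. Processed intensities also differ in signal and background correction, so the part of the offset there was not tested. The cause of the third was not tested. Under Agilent's processed intensities *Mx1* reached a log2 ratio of 4.5 to wt cells and *Ifit3* 3.60. Reversed in sign, at values near 0, were *Ifit1* against wt cells (0 with processed intensities, 0.01 with siPax8 in Cy3 only), *Ifit1* against siScramble cells (0 with processed intensities, -0.01 with siPax8 in Cy5 only, and 0.00 to 0.04 without one replicate) and *Ifit1* in the difference (0.01 with processed intensities). So were *Bst2* A_44_P1029397 against siScramble cells (-0.04 with siPax8 in Cy5 only) and *Ifit2* A_44_P410016 in the difference (-0.01 to 0.07 without one replicate, the lowest without replicate 1).

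Whether replicate numbers pair the comparisons was not settled. Deviations of the same number correlated with 0.395, 0.175, 0.044 and 0.566, while the scheme names the same siPax8 samples in both and the siPax8 levels of *Rsad2* A_44_P196172 were 11.57, 10.98, 10.85 and 11.20 on the wt arrays and 11.53, 10.96, 10.78 and 11.15 on the siScramble arrays. With same-numbered replicates paired in a replicate block, 8 member probes were called in the difference. *Mx1* (limma adjusted p = 8.16e-06) and *Rsad2* A_44_P370190 (limma adjusted p = 0.000299) were added. Against wt cells the replicate block joined the dye orientations of a replicate, and 9 member probes were called. That fit does not bear on the pairing of the comparisons. The number of member probes in the difference was 4 to 7 without one replicate, with 4 for replicates 2, 3 and 4. Over all probes, called higher were 878 to 3848 against wt cells (2885 as reported), 0 to 1715 against siScramble cells (499) and 178 to 1143 in the difference (677), the lowest with processed intensities or without replicate 3. At 0 against siScramble cells, 3443 probes were higher at an unadjusted limma p below 0.05.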
